A study of Homo sapiens with 16 samples.

Results

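The genes described here are serum response factor (SRF) and 9 contractile cytoskeleton genes of the kind it controls, namely ACTA2, MYL9, TPM1, TPM2, TPM4, CNN1, CNN2, TAGLN and FILIP1L. They were chosen by gene symbol, 10 of the 58735 genes in the deposited count table, and 9 of the 10 had enough reads to be tested. RNA was sequenced from 2 human cell lines established from triple-negative breast cancers, MDA-MB-231 and SUM159 (titled SUM159PT), both labelled WT for genotype. Cells of each line received 8 uM YES1i (CH6953755), which blocks YES1, a kinase of the Src family, or the solvent DMSO, and were collected after 48 h. The 4 groups, MDA-MB-231 with YES1i, MDA-MB-231 with DMSO, SUM159 with YES1i and SUM159 with DMSO, held 4 libraries each, 16 in all. Each line was grown in a medium of its own, RPMI for MDA-MB-231 and Ham/F12 for SUM159, so line and medium cannot be told apart. The series text calls the 4 libraries of a group technical replicates, so p-values measure only the spread between these libraries.

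SRF is a transcription factor that binds a DNA element called the CArG box and works with partner proteins of different families. Its partners MRTFA and MRTFB are held in the cytoplasm by monomeric actin and enter the nucleus when actin polymerises, where they switch on genes of the contractile machinery. The ternary complex factors ELK1, ELK3 and ELK4 compete for the same surface of SRF and connect it to ERK signalling and immediate early genes. In breast cancer cells the actin and myosin genes under SRF are known for their part in cell shape, adhesion and movement.

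The CArG box, 2 C, 6 bases that are A or T and 2 G, was looked for in RefSeq promoter windows (build GRCh38.p14, 250 bases before to 50 after a start). The pattern reads the same on either strand. An exact box stood in 1.29% of all 35116 windows, and a box with at most 1 mismatch in 18.9%. Of the 10 genes 8 had windows, 14 in all, and exact boxes stood in 4 of these, 1 each of SRF, CNN2, TPM4 and FILIP1L. TAGLN and MYL9 had no entry. The SRF promoter is shown because it holds a pair of exact boxes just before the start, and stretches of the other promoters are shown for comparison, with each box in capitals and positions counted from the start. SRF (chr6:43171169-43171268, plus strand) covers positions -100 to -1. CNN2 (chr19:1026509-1026538, plus strand) covers -99 to -70, TPM4 (chr19:16067355-16067384, plus strand) -183 to -154 and FILIP1L (chr3:99876214-99876243, minus strand) -70 to -41. ACTA2 (chr10:88952830-88952899, minus strand) covers -126 to -57 and has no exact box but a pair that each differ from the pattern at 1 base.
SRF: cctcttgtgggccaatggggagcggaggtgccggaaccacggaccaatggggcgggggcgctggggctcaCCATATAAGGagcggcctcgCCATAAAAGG
CNN2: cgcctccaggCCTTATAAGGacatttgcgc
TPM4: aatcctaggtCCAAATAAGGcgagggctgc
FILIP1L: acgcggagcgCCTTATAAGGcagaacagtg
ACTA2: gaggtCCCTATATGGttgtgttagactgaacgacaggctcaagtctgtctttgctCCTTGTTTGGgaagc
The boxes of CNN2 and FILIP1L have the same 10 letters. The windows of TPM1, TPM2 and CNN1 held no box in either search. The only TPM1 window (chr15:63048239-63048538, plus strand) lay inside the gene. The region before its listed first base (63042632) was not searched.

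Total counts ran from 15876171 to 36261542 per library. Mitochondrial rRNA took on average 1.33% of counts with YES1i and 0.644% with DMSO in MDA-MB-231, and 1.34% with YES1i and 0.731% with DMSO in SUM159. Its part in the results below was not tested. YES1 transcripts had a log2 fold change with the inhibitor of -0.02 (SE 0.06, adjusted p = 0.86 by edgeR) in MDA-MB-231 and -0.21 (SE 0.06, adjusted p = 0.00392) in SUM159. ESR1 and PGR, the genes of the hormone receptors, were below 1 CPM, the count scaled to library size, in every library, while ERBB2, the gene of HER2, had 97.5 to 125 CPM. In RNA from a whole culture, fewer cells that express a gene and less of its RNA per cell cannot be told apart.

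Markers of other cell types moved with the treatment in places, and their part in the results of the 10 genes was not tested. Of 6 markers of differentiated smooth muscle, MYOCD had 0 counts in all libraries but 1, which had 1 read. The summed level of the 6 was 35.8 to 41.4 CPM with YES1i and 82.2 to 88.5 CPM with DMSO in MDA-MB-231, and 33.0 to 37.4 CPM with YES1i and 41.9 to 50.7 CPM with DMSO in SUM159. These sums are mostly SMTN, which fell in both lines, while in SUM159 LMOD1 rose 3.71-fold (adjusted p = 5.59e-11 by edgeR) and ACTG2 4.00-fold (adjusted p = 7.88e-06). Of 4 fibroblast and pericyte markers, DCN had 0 counts in MDA-MB-231. In that line their sum was 22.7 to 29.1 CPM with YES1i and 35.9 to 38.5 CPM with DMSO. There PDGFRB fell by 0.95 on the log2 scale, while LUM rose by 2.28 (adjusted p = 4.29e-06 by edgeR). LUM had 3.50 ± 0.145 CPM with YES1i and 0.707 ± 0.332 CPM with DMSO in MDA-MB-231 (SD, n = 4). In SUM159 the sum was 730.0 to 897 CPM with YES1i and 717 to 852 CPM with DMSO, most of it COL1A1, with 741 ± 67.5 CPM with YES1i and 745 ± 70.3 CPM with DMSO (SD, n = 4). Beside it, DCN rose to 18.98 ± 1.17 CPM with YES1i, against 8.59 ± 1.70 CPM with DMSO (adjusted p = 1.49e-07 by edgeR), and PDGFRB rose 1.47-fold (adjusted p = 2.1e-07) in SUM159. Of 3 endothelial markers, CDH5 had 0 counts in SUM159, and the sum was 8.48 to 9.98 CPM with YES1i and 2.38 to 4.796 CPM with DMSO in MDA-MB-231, and 1.43 to 1.71 CPM with YES1i and 1.06 to 1.48 CPM with DMSO in SUM159. In MDA-MB-231 PECAM1 rose 2.70-fold (adjusted p = 5.95e-08 by edgeR) and VWF 2.99-fold (adjusted p = 0.00888), the second at under 1 CPM. VWF rose in SUM159 as well, 2.94-fold (adjusted p = 0.0457 by edgeR), again at under 1 CPM. Of 3 leukocyte markers, CD3E had 0 counts in all libraries but 1 of MDA-MB-231 with YES1i, and the sum was 0.974 to 2.20 CPM with YES1i and 1.94 to 2.23 CPM with DMSO in MDA-MB-231, and 2.29 to 2.54 CPM with YES1i and 0.646 to 1.19 CPM with DMSO in SUM159. CD14 rose 3.24-fold in SUM159 (adjusted p = 1.42e-06 by edgeR), and its change differed between lines (MDA-MB-231 minus SUM159, -2.05, adjusted p = 2.55e-05).

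In SUM159, 7 of the 9 tested genes rose with YES1i and none fell. Transgelin rose 3.72-fold, the myosin light chain gene MYL9 2.55-fold, and the actin and tropomyosin genes ACTA2, TPM1, TPM2 and TPM4 between 1.36-fold and 1.85-fold, while SRF itself and CNN2 did not pass the test. The median log2 fold change was 0.86, beside 0.02 over all 17647 genes tested. In this comparison 51.6% of all tested genes were called (edgeR's quasi-likelihood test, adjusted p under 0.05), 25.1% as higher and 26.5% as lower. Higher genes were 48.7% of these calls, and 63.4% with upper quartile scaling. The count of falls was 0 also at an unadjusted p under 0.05, with DESeq2 and with limma-voom. Of the 10 genes 6 had every YES1i library above every DMSO library and 1 had every YES1i library below, beside 20.5% and 22.7% of all tested genes (43.3% in all).

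TAGLN encodes transgelin, an actin-bundling protein of the calponin family (ENSG00000149591, chromosome 11, 117199321 to 117204782 on hg38). It had 43.6, 31.6, 31.3 and 37.5 CPM in the SUM159 libraries with YES1i, and 9.22, 10.4, 9.72 and 9.46 CPM in those with DMSO. Every library with the inhibitor stood far above all those with the solvent, and the spread among them was wider. The log2 fold change was 1.90 (SE 0.10, adjusted p = 1.85e-15 by edgeR). MYL9, the regulatory light chain of non-muscle and smooth muscle myosin (ENSG00000101335, chromosome 20, 36541484 to 36551447), had 118, 134, 122 and 121 CPM with YES1i, and 48.9, 47.6, 48.0 and 49.2 CPM with DMSO. Its groups were again far apart. Its log2 fold change was 1.35 (SE 0.05, adjusted p = 4.7e-18 by edgeR), the smallest p of the set in this line.

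ACTA2, the smooth muscle alpha-actin that also marks myofibroblasts (ENSG00000107796, chromosome 10, 88935074 to 88991339), was at low levels. It had 7.62, 9.01, 8.57 and 7.57 CPM in SUM159 with YES1i, and 4.55, 4.97, 4.36 and 4.23 CPM with DMSO. The groups did not overlap. The log2 fold change was 0.86 (SE 0.14, adjusted p = 1.18e-05 by edgeR). Its close relative ACTG2, the enteric smooth muscle actin, named after its values were seen, had 2.96 ± 0.306 CPM with YES1i and 0.737 ± 0.337 CPM with DMSO (SD, n = 4). Reads shared between such near-identical actins could be assigned to either or dropped, a rule that is not given in the sources used here.

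Tropomyosins are coiled-coil proteins that lie along actin filaments and set which myosins and severing proteins can bind. TPM1 (ENSG00000140416, chromosome 15, 63042632 to 63071915) had 597, 622, 582 and 595 CPM in SUM159 with YES1i, and 319, 322, 332 and 321 CPM with DMSO. Its log2 fold change was 0.89 (SE 0.05, adjusted p = 1.13e-14 by edgeR). TPM2 (ENSG00000198467, chromosome 9, 35681992 to 35690121) had 491, 455, 507 and 515 CPM with YES1i, and 341, 323, 318 and 334 CPM with DMSO. In both genes the lowest library with the inhibitor was above the highest with the solvent. The log2 fold change of TPM2 was 0.58 (SE 0.06, adjusted p = 5.25e-09 by edgeR). TPM4 (ENSG00000167460, chromosome 19, 16067021 to 16103005), which had the most reads of the set, had 1599, 1650, 1677 and 1611 CPM with YES1i, and 1266, 1173, 1188 and 1187 CPM with DMSO. It rose the least of the 3, by 0.44 on the log2 scale (SE 0.05, adjusted p = 2.57e-09 by edgeR).

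SRF (ENSG00000112658, chromosome 6, 43171299 to 43181507) had 98.7, 97.8, 91.9 and 89.7 CPM in SUM159 with YES1i, and 100.4, 95.8, 98.9 and 92.5 CPM with DMSO. The groups overlapped and the log2 fold change was -0.04 (SE 0.05, adjusted p = 0.559 by edgeR), with a sign that turned under RLE and upper quartile scaling and with DESeq2. CNN2, a calponin of non-muscle cells that binds actin (ENSG00000064666, chromosome 19, 1026581 to 1039068), had 171, 172, 161 and 159 CPM with YES1i, and 173, 174, 177 and 184 CPM with DMSO. Each library with the inhibitor was below each with the solvent, but the log2 fold change of -0.10 (SE 0.05) was not called (adjusted p = 0.103 by edgeR), and it was 0.02 under upper quartile scaling.

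FILIP1L, a relative of the filamin A interacting protein FILIP1 (ENSG00000168386, chromosome 3, 99830141 to 100114513), was almost silent in SUM159, with 3, 23, 7 and 17 reads with YES1i, and 1, 5, 5 and 8 reads with DMSO. The groups overlapped, at 0.592 ± 0.392 CPM with YES1i and 0.263 ± 0.185 CPM with DMSO (SD, n = 4). Its log2 fold change of 1.51 (SE 0.51, adjusted p = 0.0161 by edgeR) was 0.90 without SUM159 DMSO replicate 1 (adjusted p = 0.0917) and 1.08 without SUM159 YES1i replicate 2 (adjusted p = 0.0805), so this call rested on single libraries. CNN1, the calponin of differentiated smooth muscle (ENSG00000130176, chromosome 19, 11538717 to 11550323), had 1 to 14 reads in each of the 16 libraries and was not tested across genes. It had 0.148 ± 0.0568 CPM with YES1i and 0.152 ± 0.0421 CPM with DMSO in SUM159 (two-sided exact permutation p = 0.914). In MDA-MB-231 it had 0.307 ± 0.271 CPM with YES1i and 0.197 ± 0.0453 CPM with DMSO (exact permutation p = 0.571; SD, n = 4 each), where the smallest p that 70 regroupings allow is 0.0286.

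**Figure D1:**
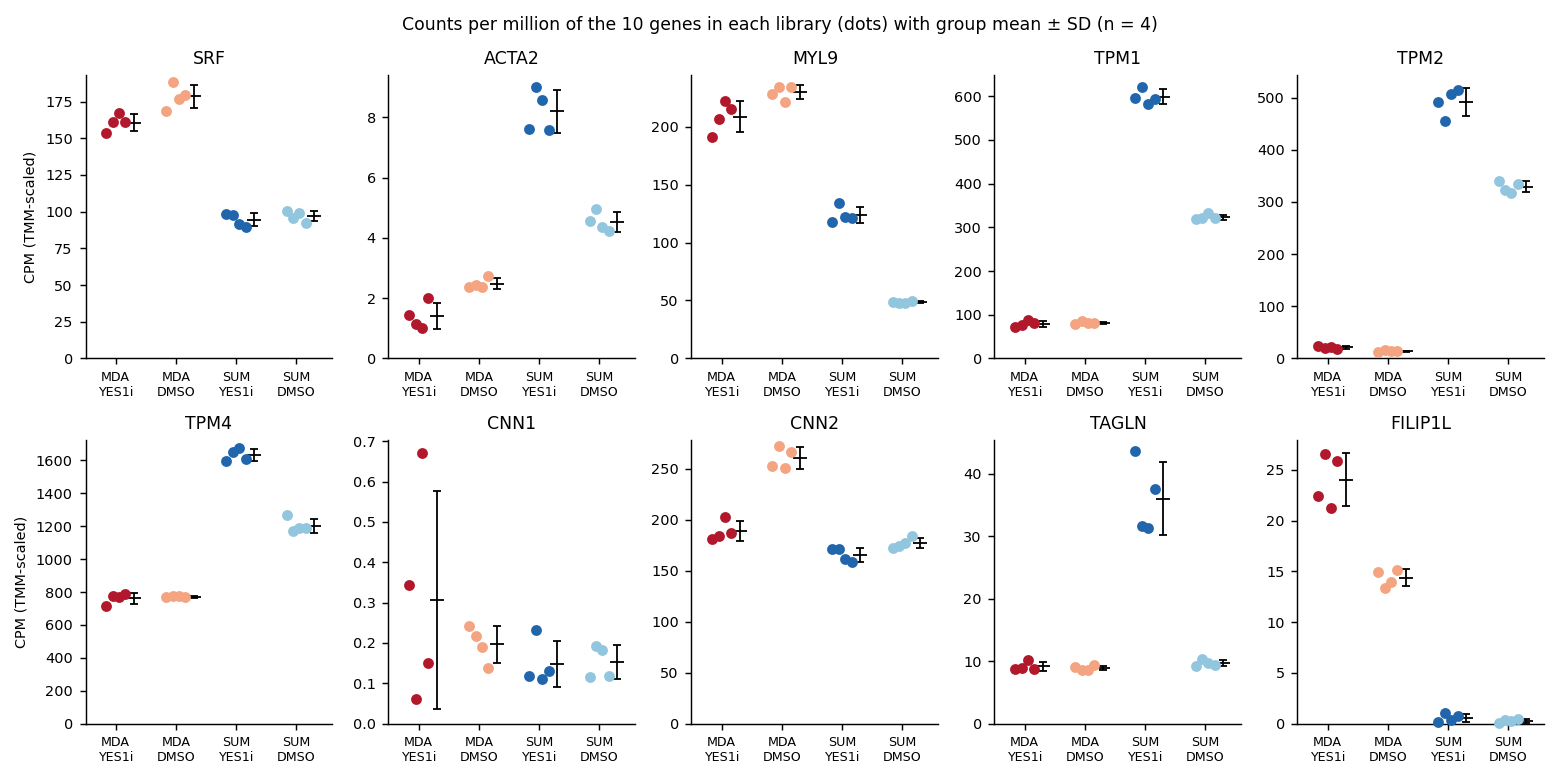
Level in CPM (TMM-scaled) of the 10 genes, with a dot for each library and the group mean ± SD beside it (n = 4), for MDA-MB-231 (MDA) and SUM159 (SUM) with YES1i or DMSO. TAGLN lies at 31.3 to 43.6 CPM in SUM159 with YES1i, and at 9.22 to 10.4 CPM in SUM159 with DMSO.

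In MDA-MB-231, 2 of the 9 tested genes rose with YES1i, TPM2 and FILIP1L, and 4 fell, ACTA2, CNN2, SRF and MYL9. No fall or rise reached 2-fold, and TAGLN, TPM1 and TPM4 did not pass the test. The median log2 fold change was -0.04, beside 0.03 over all genes tested. Of all tested genes 48.9% were called, 26.8% as higher and 22.1% as lower, so a call in itself is common here. The libraries of the groups did not overlap for 5 of the 10 genes, 2 higher and 3 lower, beside 25.5% and 21.8% of all tested genes (47.3% in all).

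CNN2 had 181, 184, 203 and 187 CPM in MDA-MB-231 with YES1i, and 253, 273, 251 and 266 CPM with DMSO. All 4 libraries with the inhibitor were below the lowest with the solvent. The log2 fold change was -0.46 (SE 0.05, adjusted p = 3.24e-09 by edgeR), the smallest p of the set in this line. ACTA2 had 1.43, 1.16, 1.01 and 2.00 CPM with YES1i, and 2.37, 2.45, 2.38 and 2.73 CPM with DMSO. It fell by 0.82 on the log2 scale (SE 0.19, adjusted p = 7.08e-04 by edgeR), on counts of 19 to 60 per library. SRF had 153, 161, 167 and 161 CPM with YES1i, and 169, 189, 177 and 180 CPM with DMSO. These groups lay next to each other without overlap, and the fall of 0.15 (SE 0.05) was small (adjusted p = 0.0116 by edgeR). It was not called without MDA-MB-231 DMSO replicate 2 (adjusted p = 0.0588).

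MYL9 had 191.4, 206.4, 222.1 and 215.0 CPM in MDA-MB-231 with YES1i, and 228.3, 234.0, 221.7 and 234.5 CPM with DMSO. YES1i replicate 3 stood just above the lowest DMSO library, so the groups overlapped, and the log2 fold change was -0.14 (SE 0.05, adjusted p = 0.0248 by edgeR). This call did not survive leaving out any 1 of 4 libraries of this line, with an adjusted p of 0.0681 without DMSO replicate 2, 0.0668 without DMSO replicate 4, 0.125 without YES1i replicate 1 and 0.0633 without YES1i replicate 2. TPM2 rose to 24.5, 19.6, 22.3 and 18.6 CPM with YES1i, against 12.1, 15.5, 13.4 and 13.9 CPM with DMSO. Its groups did not overlap, and its log2 fold change was 0.64 (SE 0.08, adjusted p = 1.14e-07 by edgeR). FILIP1L rose as well, to 22.5, 26.6, 21.3 and 25.9 CPM with YES1i, against 15.0, 13.4, 14.0 and 15.1 CPM with DMSO. Its groups were apart, with a log2 fold change of 0.74 (SE 0.16, adjusted p = 4.04e-04 by edgeR).

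TAGLN had 8.77, 8.88, 10.1 and 8.80 CPM in MDA-MB-231 with YES1i, and 9.01, 8.55, 8.65 and 9.34 CPM with DMSO. The groups overlapped (log2 fold change 0.04, SE 0.11, adjusted p = 0.792 by edgeR). TPM1 averaged 79.2 ± 6.61 CPM with YES1i and 81.4 ± 2.88 CPM with DMSO (SD, n = 4). It was not called (log2 fold change -0.04, SE 0.05, adjusted p = 0.585 by edgeR). TPM4 averaged 762 ± 32.4 CPM with YES1i and 773 ± 6.20 CPM with DMSO (log2 fold change -0.02, SE 0.05, adjusted p = 0.755 by edgeR). For these 3 genes the sign turned when 1 MDA-MB-231 library was left out, YES1i replicate 3 for TAGLN and YES1i replicate 1 for TPM1 and TPM4.

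**Figure D2:**
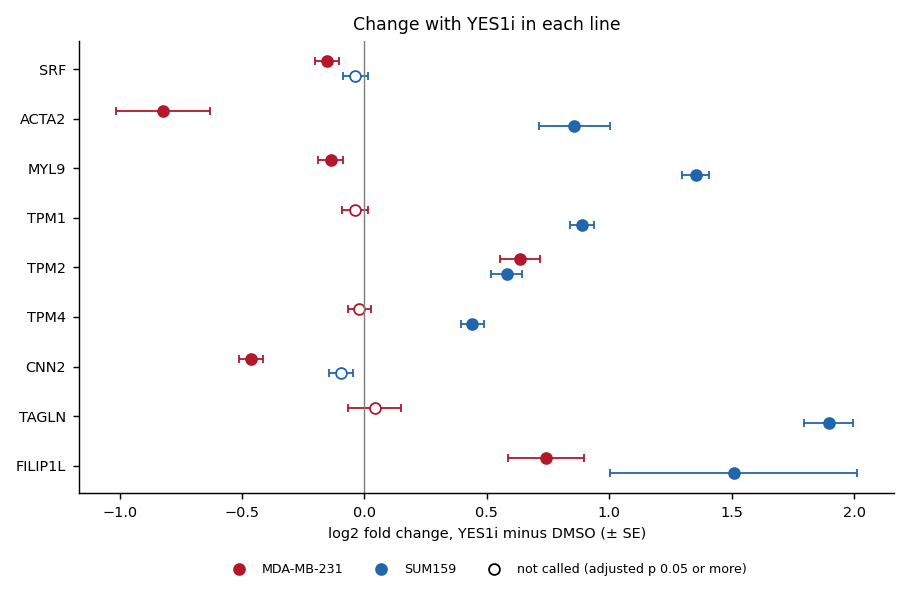
Log2 fold change with YES1i against DMSO (x axis, ± SE) of the 9 tested genes in MDA-MB-231 and SUM159, with open circles where edgeR's adjusted p was 0.05 or more. TPM2 lies at 0.64 in MDA-MB-231 and 0.58 in SUM159, while TAGLN lies at 0.04 in MDA-MB-231 and 1.90 in SUM159.

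The response to YES1i differed between the lines for 6 of the 9 tested genes, and each of the 6 was lower in MDA-MB-231 relative to SUM159. Of all tested genes 31.1% had a called difference, 19.1% higher and 12.1% lower. Higher genes were 61.2% of these calls, and 43.9% with upper quartile scaling. None of the 9 was called higher, also at an unadjusted p under 0.05 or with DESeq2 or limma-voom. The difference in log2 fold change, MDA-MB-231 minus SUM159, was -1.85 for TAGLN (SE 0.15, adjusted p = 5.07e-11 by edgeR), -1.68 for ACTA2 (SE 0.24, adjusted p = 2.66e-06) and -1.49 for MYL9 (SE 0.07, adjusted p = 1.07e-15). For TPM1 it was -0.93 (SE 0.07, adjusted p = 4.42e-11 by edgeR), for TPM4 -0.46 (SE 0.06, adjusted p = 1.61e-06) and for CNN2 -0.37 (SE 0.07, adjusted p = 1.13e-04). ACTA2 and MYL9 were called in opposite directions in the lines, TAGLN, TPM1 and TPM4 rose in SUM159 and were not called in MDA-MB-231, and CNN2 fell in MDA-MB-231 and was not called in SUM159. TPM2 rose in each line, and its difference of 0.06 (SE 0.10, adjusted p = 0.737 by edgeR) had no stable sign under other scalings. The difference of SRF was -0.11 (SE 0.07, adjusted p = 0.238 by edgeR), called only with upper quartile scaling (-0.22, adjusted p = 0.0127), and that of FILIP1L was -0.77 with a wide error (SE 0.53, adjusted p = 0.302).

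Several of these genes share their place in the genome with others, which limits some counts, since the strand setting of the counting is not given in the sources used here. The length listed for each of the 10 genes equals its exonic length in GENCODE release 29, so exons were compared in that annotation. TAGLN shares 446 of its 3917 exonic bases with PCSK7 on the other strand. The total count of PCSK7 was 151% of that of TAGLN. ACTA2 shares 380 of 2976 with FAS, whose total count was 212% of that of ACTA2. It shares 516 with ACTA2-AS1, whose total count was 6.96% of that of ACTA2. TPM1 shares 2070 of 12876 with TPM1-AS, whose total count was 0.911% of its own. The remaining exonic overlaps, with other genes in TPM1, TPM4 and CNN2, each cover under 10% of the exonic bases. FILIP1L overlaps CMSS1 and ACTA2 overlaps STAMBPL1, with 0 shared exonic bases in each case. In SUM159, where TAGLN and ACTA2 rose, PCSK7 and FAS fell by 0.49 and 0.31 on the log2 scale. In MDA-MB-231, where ACTA2 fell, FAS fell by 0.53, and without strand these cannot be told apart. Among the 6 tested genes with no overlapping gene at 10% or more of their count (SRF, MYL9, TPM1, TPM2, TPM4 and CNN2), 4 rose and 0 fell in SUM159 (0 fell also by DESeq2, limma-voom or an unadjusted edgeR test), and 1 rose and 3 fell in MDA-MB-231. This subset was chosen after the data were seen. Over all genes tested, 25.1% were called higher and 26.5% lower in SUM159, and 26.8% and 22.1% in MDA-MB-231. Of the falls in MDA-MB-231, those of SRF and MYL9 were not called at an adjusted p under 0.01.

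The lines also differed in the level of these genes without the inhibitor. In DMSO, 4 of the 9 tested genes were higher in MDA-MB-231 than in SUM159 and 4 were lower, beside 37.8% and 38.7% of all genes tested (76.6% in all). For these 8 genes the lines did not overlap in any library, beside 36.0% of all genes higher and 36.4% lower without overlap (72.4% in all). FILIP1L averaged 14.4 ± 0.846 CPM in MDA-MB-231 and 0.263 ± 0.185 CPM in SUM159 (SD, n = 4), a log2 difference of 6.02 (SE 0.29, adjusted p = 1.1e-14 by edgeR). TPM2 differed the most in the other direction, at 13.7 ± 1.40 CPM in MDA-MB-231 and 329 ± 10.3 CPM in SUM159, a log2 difference of -4.59 (SE 0.08, adjusted p = 1.67e-28 by edgeR). MYL9 and SRF were higher in MDA-MB-231, by 2.24 (SE 0.05) and 0.88 (SE 0.05) on the log2 scale, as was CNN2 by 0.56 (SE 0.05). TPM1, ACTA2 and TPM4 were lower, with log2 differences of -1.99 (SE 0.05), -0.86 (SE 0.16) and -0.64 (SE 0.05). TAGLN was not called in DMSO (-0.12, SE 0.11, adjusted p = 0.317 by edgeR).

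With YES1i all 9 tested genes differed between the lines, 4 higher and 5 lower in MDA-MB-231, beside 41.0% and 38.5% of all genes tested (79.5% in all). None of the 9 overlapped between the lines, beside 37.7% of all genes higher and 34.1% lower without overlap (71.8% in all). TAGLN now had a log2 difference of -1.97 (SE 0.10, adjusted p = 6.63e-17 by edgeR), with 9.14 ± 0.655 CPM in MDA-MB-231 and 36.0 ± 5.83 CPM in SUM159 (SD, n = 4). For ACTA2 the difference was -2.54 (SE 0.17) and for TPM1 -2.92 (SE 0.05). MYL9 stayed higher in MDA-MB-231, but by 0.75 (SE 0.05) on the log2 scale. CNN2 was higher by 0.19 (SE 0.05, adjusted p = 8.75e-04 by edgeR), which was not called with upper quartile scaling (0.08, adjusted p = 0.123) and in a fit of the YES1i libraries alone (0.12, adjusted p = 0.0528). These comparisons share libraries with the treatment comparisons above.

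**Figure D3:**
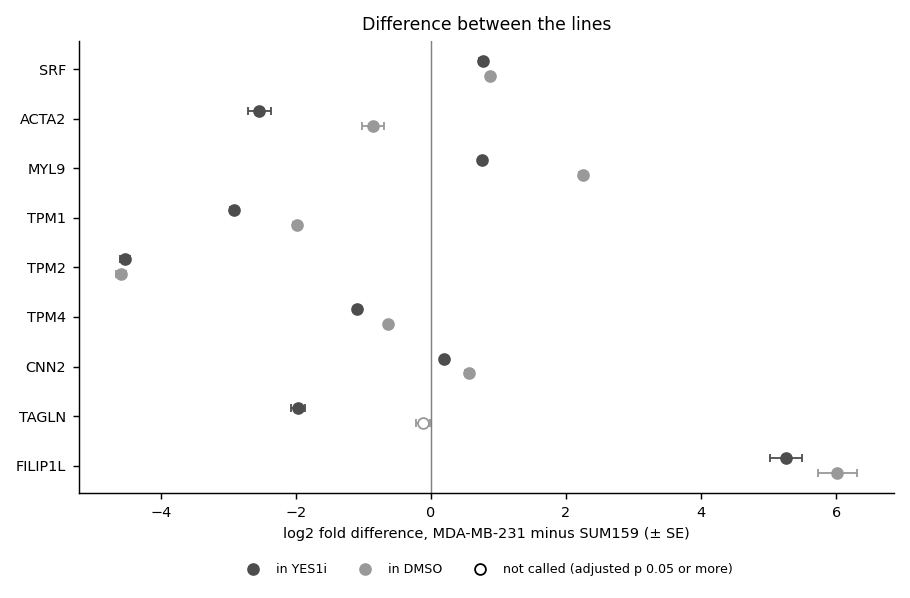
Log2 difference between MDA-MB-231 and SUM159 (x axis, ± SE) of the 9 tested genes in YES1i and in DMSO, with an open circle where edgeR's adjusted p was 0.05 or more. TPM2 lies at -4.53 in YES1i and -4.59 in DMSO, while TAGLN lies at -1.97 in YES1i and -0.12 in DMSO.

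Levels of different genes were set side by side as CPM per kilobase of listed gene length, which counts the exons of all isoforms and so understates long genes with many isoforms such as TPM1. In SUM159 with YES1i the order was TPM4 (189 ± 4.18), TPM2 (152 ± 8.27), TPM1 (46.5 ± 1.31), CNN2 (45.4 ± 1.85), MYL9 (43.8 ± 2.45), SRF (22.5 ± 1.05), TAGLN (9.19 ± 1.49) and ACTA2 (2.75 ± 0.240), where TPM1, CNN2 and MYL9 lay within their spread of each other (CPM per kb, SD, n = 4). In SUM159 with DMSO, TPM4 (139 ± 4.90) and TPM2 (101 ± 3.18) again led, followed by CNN2 (48.6 ± 1.36), TPM1 (25.1 ± 0.442), SRF (23.1 ± 0.831), MYL9 (17.2 ± 0.276), TAGLN (2.48 ± 0.129) and ACTA2 (1.52 ± 0.109). FILIP1L and CNN1 were at 0.0445 to 0.100 CPM per kb in this line and could not be ordered. MYL9 thus stood beside CNN2 with the inhibitor, and below SRF with the solvent.

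In MDA-MB-231 with YES1i the order in CPM per kb was TPM4 (88.3 ± 3.75), MYL9 (74.0 ± 4.69), CNN2 (51.8 ± 2.62), SRF (38.2 ± 1.34), TPM2 (6.55 ± 0.823), TPM1 (6.15 ± 0.513), FILIP1L (4.07 ± 0.438), TAGLN (2.34 ± 0.167), ACTA2 (0.470 ± 0.147) and CNN1 (0.106 ± 0.0937). With DMSO it was TPM4 (89.5 ± 0.719), MYL9 (81.4 ± 2.12), CNN2 (71.5 ± 2.88), SRF (42.5 ± 1.93), TPM1 (6.32 ± 0.223), TPM2 (4.22 ± 0.432), FILIP1L (2.43 ± 0.143), TAGLN (2.27 ± 0.0923), ACTA2 (0.835 ± 0.0574) and CNN1 (0.0682 ± 0.0157). TPM1 and TPM2 with the inhibitor, and FILIP1L and TAGLN with the solvent, were neighbours within their spread. TPM4 was the most abundant of the set in each of the 4 groups on this scale.

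The make-up of tropomyosin RNA differed by line and by treatment. TPM3, the remaining tropomyosin gene, was included because a share needs the whole family. It fell with YES1i in each line, with a log2 fold change of -0.60 (SE 0.05, adjusted p = 6.21e-11 by edgeR) in MDA-MB-231 and -0.75 (SE 0.05, adjusted p = 8.41e-13) in SUM159. Its share of the length-scaled sum of TPM1 to TPM4 was 31.2% ± 0.578 with YES1i and 41.0% ± 0.712 with DMSO in MDA-MB-231, and 7.29% ± 0.289 with YES1i and 16.1% ± 0.559 with DMSO in SUM159 (SD, n = 4). TPM2 made up 4.48% ± 0.702 with YES1i and 2.49% ± 0.249 with DMSO in MDA-MB-231, but 36.3% ± 1.53 with YES1i and 32.0% ± 0.447 with DMSO in SUM159. TPM4 had the largest share in each group. The sum itself was 147 ± 5.35 CPM per kb with YES1i and 169 ± 2.41 with DMSO in MDA-MB-231, and 418 ± 7.87 with YES1i and 317 ± 10.6 with DMSO in SUM159, so it was lower with the inhibitor in one line and higher in the other. These shares and sums are descriptions with no test, and reads from stretches that tropomyosin genes and the TPM3 pseudogenes have in common may be counted in either.

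**Figure D4:**
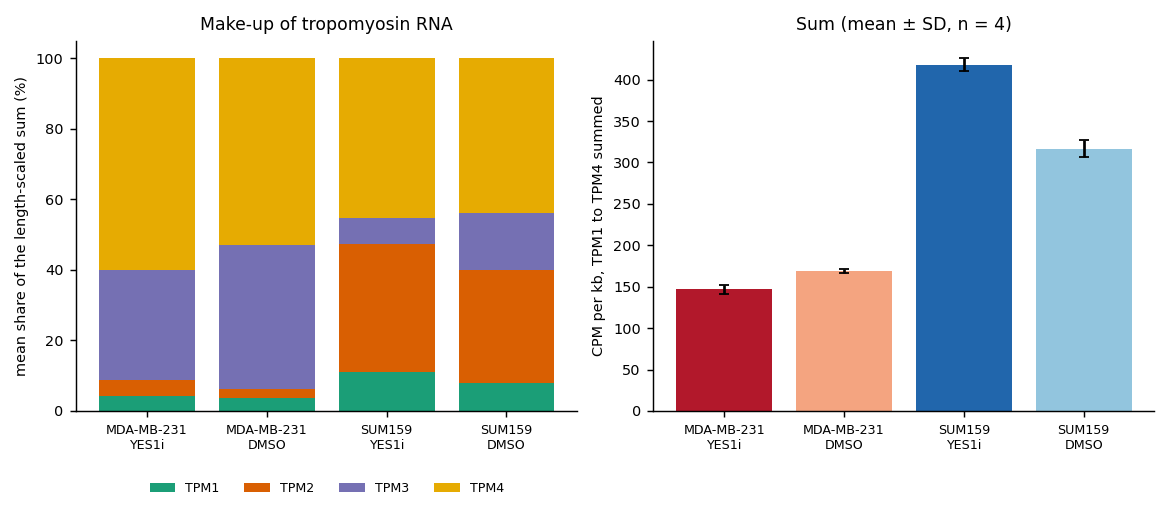
Left, mean share of TPM1, TPM2, TPM3 and TPM4 in their length-scaled sum (%, n = 4 libraries per group); right, that sum in CPM per kb (mean ± SD, n = 4). TPM3 holds 31.2% with YES1i and 41.0% with DMSO in MDA-MB-231, and 7.29% with YES1i and 16.1% with DMSO in SUM159.

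Several cofactors and modulators of SRF were lower with YES1i. Of 9 tested cofactors and modulators 0 rose and 5 fell in MDA-MB-231 (median log2 fold change -0.18; 0 rose also by DESeq2, limma-voom or an unadjusted edgeR test), beside 26.8% higher and 22.1% lower over all genes tested. In SUM159, 1 rose and 5 fell (median -0.26), or 2 and 4 with upper quartile scaling, beside 25.1% higher and 26.5% lower over all genes. The ternary complex factors ELK1, ELK3 and ELK4 were among the falls in MDA-MB-231, with log2 fold changes of -0.27, -0.42 and -0.18. In SUM159 ELK3 fell by 0.43, and ELK1 and ELK4 were not called (-0.02 and -0.08). MRTFA, which carries the actin signal to SRF, fell to 25.0 ± 1.84 CPM with YES1i in SUM159, against 37.6 ± 2.46 CPM with DMSO (log2 fold change -0.59, SE 0.07, adjusted p = 4.57e-08 by edgeR). In MDA-MB-231 it had 29.9 ± 1.51 CPM with YES1i and 33.0 ± 1.43 CPM with DMSO and was not called (-0.14, SE 0.07, adjusted p = 0.1). The change of MRTFA differed between lines, MDA-MB-231 minus SUM159, by 0.45 (SE 0.10, adjusted p = 8.04e-04 by edgeR). MRTFB was not called in either line, with log2 fold changes of -0.04 (SE 0.07) in MDA-MB-231 and 0.10 (SE 0.07) in SUM159, though upper quartile scaling called it higher in SUM159 (0.22, adjusted p = 0.0139). FHL2, a LIM-domain partner of SRF, fell by 0.63 (SE 0.07) in MDA-MB-231 and by 0.26 (SE 0.07) in SUM159, the second not called with upper quartile scaling (adjusted p = 0.0771). In SUM159, SCAI, which represses MRTF activity, rose by 0.49 (SE 0.09), and SRFBP1, an SRF-binding protein, fell by 0.69 (SE 0.13), while in MDA-MB-231 neither was called (-0.03 for SCAI and -0.25 for SRFBP1). The difference between lines was called for SCAI (-0.52, adjusted p = 0.00256 by edgeR) but not for SRFBP1 (0.44, adjusted p = 0.0635).

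Other cytoskeletal targets of SRF and the MRTFs moved in both directions. In SUM159, 8 of 16 rose and 3 fell (median log2 fold change 0.10), and 10 rose with upper quartile scaling, beside 25.1% higher and 26.5% lower over all genes tested. In MDA-MB-231, 4 rose and 8 fell (median -0.15), beside 26.8% and 22.1%. MYH9, the heavy chain of non-muscle myosin IIA, rose to 7660 ± 792 CPM with YES1i in SUM159, against 4677 ± 395 CPM with DMSO (log2 fold change 0.71, SE 0.06), and by 0.26 (SE 0.06) in MDA-MB-231. PFN1, profilin, which binds monomeric actin, fell by 0.84 (SE 0.06) in SUM159 and by 0.61 (SE 0.06) in MDA-MB-231. FHL1, a LIM-domain protein of muscle, rose by 0.62 (SE 0.14) in MDA-MB-231 and by 0.89 (SE 0.23) in SUM159. Its level in SUM159 was low, 4.04 ± 1.33 CPM with YES1i and 2.04 ± 0.819 CPM with DMSO, and these groups overlapped. MYLK, the kinase that phosphorylates myosin light chains such as MYL9, was named after its values were seen. It rose to 85.5 ± 5.01 CPM with YES1i in SUM159, against 52.8 ± 1.60 CPM with DMSO, and had 171 ± 6.55 CPM with YES1i and 163 ± 4.67 CPM with DMSO in MDA-MB-231. The difference between lines was -0.63 for MYLK (SE 0.07, adjusted p = 5.86e-08 by edgeR).

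Close relatives of the set moved in both directions. The list held actin, calponin, transgelin and myosin light chain paralogs and FILIP1, the relative of FILIP1L. Of its 9 tested genes 4 rose and 4 fell in SUM159 (median log2 fold change -0.06, and 0.06 with upper quartile scaling), beside 25.1% higher and 26.5% lower over all genes tested. In MDA-MB-231, 2 rose and 1 fell (median 0.02), beside 26.8% and 22.1%. TAGLN2, the transgelin of non-muscle cells, fell to 522 ± 20.2 CPM with YES1i in SUM159, against 867 ± 34.4 CPM with DMSO (log2 fold change -0.73, SE 0.05, adjusted p = 4.45e-13 by edgeR), where TAGLN rose, and was not called in MDA-MB-231 (0.02). The cytoplasmic gamma-actin gene ACTG1 rose by 0.30 (SE 0.05) in SUM159 and was not called in MDA-MB-231 (0.03). The beta-actin gene ACTB fell in each line, with log2 fold changes of -0.35 (SE 0.05) in MDA-MB-231 and -0.38 (SE 0.05) in SUM159. MYL12A, a non-muscle regulatory light chain close to MYL9, rose by 0.45 (SE 0.05) in MDA-MB-231, where MYL9 had a log2 fold change of -0.14, and by 0.22 (SE 0.05) in SUM159.

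Immediate early genes that SRF controls with the ternary complex factors were lower in SUM159, where 4 of 6 tested fell and 0 rose (median log2 fold change -0.43; 0 rose also by DESeq2, limma-voom or an unadjusted edgeR test, and 3 fell with upper quartile scaling), beside 25.1% higher and 26.5% lower over all genes tested. In MDA-MB-231, 2 rose and 2 fell (median -0.20), beside 26.8% and 22.1%. EGR1, a zinc finger factor, fell to 2.04 ± 0.188 CPM with YES1i in SUM159, against 16.5 ± 3.22 CPM with DMSO (log2 fold change -3.02, SE 0.16, adjusted p = 3.4e-15 by edgeR), and to 4.25 ± 0.920 CPM with YES1i in MDA-MB-231, against 6.44 ± 0.837 CPM with DMSO (-0.58, SE 0.16). JUNB, an AP-1 factor, rose by 0.48 (SE 0.07) in MDA-MB-231. In SUM159 it fell by 0.49 (SE 0.07), and the difference between lines was 0.97 (SE 0.10, adjusted p = 1.04e-08 by edgeR). For the difference between lines, MDA-MB-231 minus SUM159, 4 of the 6 immediate early genes were higher and 0 lower by edgeR, DESeq2 and limma-voom (median 0.61), beside 19.1% higher and 12.1% lower over all genes tested, while 0 of the 9 contractile set genes were higher and 6 lower (median -0.77).

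**Figure D5:**
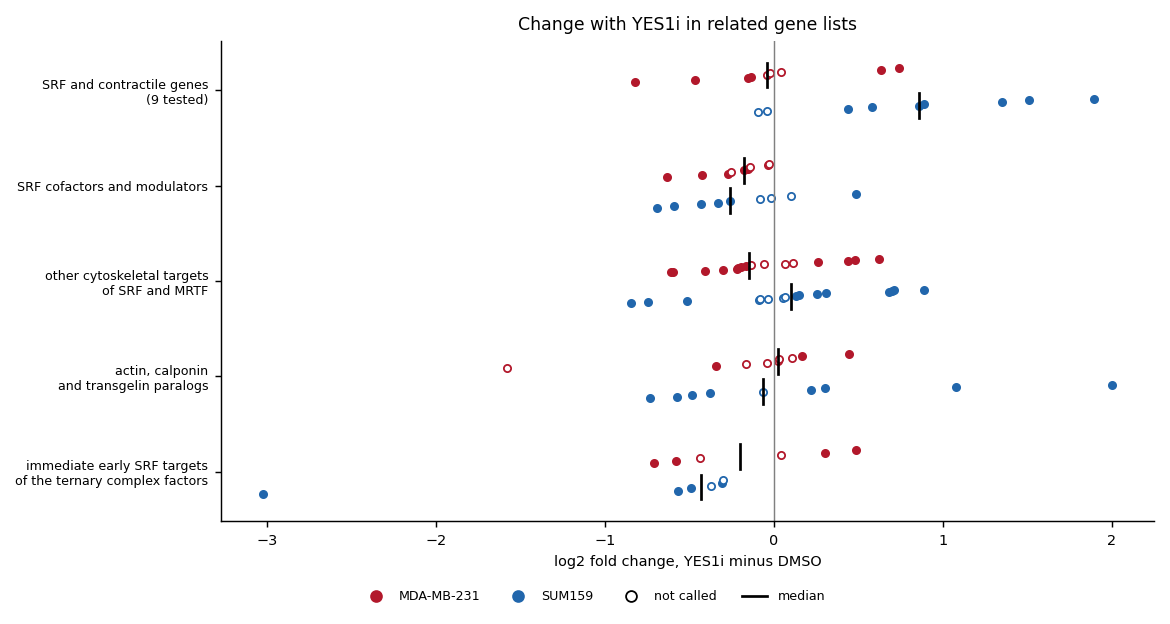
Log2 fold change with YES1i against DMSO (x axis) of each tested gene in 5 lists, for MDA-MB-231 and SUM159, with open circles where edgeR's adjusted p was 0.05 or more and a bar at the median. In SUM159 the median of SRF and the contractile genes is 0.86 and that of the immediate early list -0.43.

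Among 10869 other protein-coding genes at 5 CPM or more, those whose log2 CPM followed SRF most closely over the 16 libraries were FOXP4, MAMLD1 and CASZ1, with Pearson r of 0.996, 0.994 and 0.993. FOXP4, a forkhead factor, had 221 ± 10.1 CPM with YES1i and 284 ± 6.56 CPM with DMSO in MDA-MB-231, and 53.7 ± 3.28 CPM with YES1i and 56.7 ± 5.33 CPM with DMSO in SUM159. Those most like TAGLN were AKNA, NR1D2 and ZNF395, with r of 0.979, 0.976 and 0.975. NR1D2, a nuclear receptor of the circadian clock, had 128 ± 5.87 CPM with YES1i and 74.6 ± 2.33 CPM with DMSO in SUM159, and 72.1 ± 1.91 CPM with YES1i and 72.7 ± 3.89 CPM with DMSO in MDA-MB-231. The 16 points fall into the same 4 groups and share the scaling, so these values are descriptions with no test.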

How the data were processed

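The authors deposited raw gene counts for the 16 libraries in a single table, with the length of each gene. HISAT2 2.0.5, featureCounts 1.5.0-p3 and hg38 appear in the submitters' processing notes, without their role or order. How strand, reads in overlapping genes and reads with several alignments were counted is not given in the sources used here. Per the labels' protocols, poly-A RNA was copied with random hexamers.

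Counts were analysed in edgeR 4.0.16 (R 4.3.3, limma 3.58.1). Of 58735 genes, 17647 passed filterByExpr. TMM factors and the quasi-likelihood F test, with robust estimates, were used in 1 fit of the 4 groups, with 5 contrasts. Benjamini-Hochberg adjustment ran over all tested genes of a contrast, with calls at an adjusted p under 0.05. CPM are TMM-scaled, and standard errors came from the F statistic. Each list is described by its counts and median, and 1 further list is not reported here. The steps were tested on simulated data. From each list reported, the called genes at 5 CPM or more with the largest rise and fall in each line were named, with MRTFA and MRTFB, and the 3 genes most correlated with SRF and with TAGLN. ELK1, ELK3 and ELK4 were named after their values were seen. Genes and lists were chosen with earlier results of these data known. The release of the gene models is not given in the sources used here. Promoter windows are RefSeq's on GRCh38.p14, the same assembly as hg38. Alternatives were RLE and upper quartile scaling, no filter, a mean count of 10, DESeq2 1.42.0, limma-voom, a fit of only the groups compared, a replicate block, an adjusted p under 0.01 and leaving out each library.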

Additional observations from a re-analysis of the deposited data

Results flagged for a closer look

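The change with YES1i differed between the lines, by a test of the difference itself, for 6 of the 9 tested genes. Of all tested genes 31.1% had such a called difference, 19.1% higher and 12.1% lower. The difference in log2 fold change, MDA-MB-231 minus SUM159, was -1.85 for TAGLN, -1.68 for ACTA2, -1.49 for MYL9, -0.93 for TPM1, -0.46 for TPM4 and -0.37 for CNN2. Of 40 sets of 4 libraries (10 genes in 4 groups), 3 had a library far from the other 3 by Dixon's criterion, where chance gives about 1 in 20. TAGLN had 10.1 CPM in MDA-MB-231 YES1i replicate 3, the highest of its group. TPM4 had 1266 CPM in SUM159 DMSO replicate 1, the deepest library of the series. CNN1 had 0.232 CPM in SUM159 YES1i replicate 2, at a depth of 2 to 5 reads per library.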

How the results depend on the processing

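The number of genes called was 4 to 6 in MDA-MB-231, 6 to 7 in SUM159, 6 for the difference between lines, 8 for the lines in DMSO and 9 for the lines in YES1i when each library was left out in turn, and 4 to 6, 6 to 7, 6 to 7, 8 and 8 to 9 under the other alternatives. In SUM159 all tested genes had a median log2 fold change of 0.14 with upper quartile scaling and 0.02 with TMM. Of all calls for the difference between lines 43.9% were higher with upper quartile scaling, 52.7% with RLE and 61.2% with TMM. Values near 0 changed sign. SRF in SUM159 was 0.012 with RLE, 0.082 with upper quartile scaling and 0.0029 with DESeq2, and CNN2 there was 0.023 with upper quartile scaling. The TPM2 difference between lines was -4e-04 with RLE, -0.054 with upper quartile scaling, -0.0093 without MDA-MB-231 DMSO replicate 1 and -0.023 without MDA-MB-231 YES1i replicate 1, in a range of -0.023 to 0.11 with each library left out. In MDA-MB-231, TPM1 was 0.0076 and TPM4 0.011 without YES1i replicate 1 (ranges -0.086 to 0.0076 and -0.039 to 0.011), and TAGLN was -0.013 without YES1i replicate 3 (range -0.013 to 0.065). None of these was called before or after. At an adjusted p under 0.01, SRF and MYL9 in MDA-MB-231 and FILIP1L in SUM159 were no longer called. FILIP1L did not pass the filter in a fit of SUM159 alone. Same-numbered libraries did not deviate together (correlations of -0.377 to 0.009 over genes), so the numbers were not taken as pairs. With the replicate number as a block, 5 genes were called in MDA-MB-231, where MYL9 was lost (adjusted p = 0.0595), 7 in SUM159, 6 for the difference between lines, 8 in DMSO and 9 in YES1i. Depth limits CNN1 in every group and FILIP1L in SUM159. The causes were not tested.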

Other observations

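Markers of differentiated smooth muscle moved in opposite directions with YES1i. LMOD1, leiomodin, which nucleates actin filaments in muscle, had 11.8 ± 1.07 CPM with YES1i and 3.13 ± 0.478 CPM with DMSO in SUM159 (SD, n = 4), a log2 fold change of 1.89 (SE 0.16, adjusted p = 5.59e-11 by edgeR). In MDA-MB-231 LMOD1 was below 1 CPM and was also called higher (log2 fold change 0.93, SE 0.34, adjusted p = 0.0237 by edgeR). Its difference between lines was not called (adjusted p = 0.0682 by edgeR). SMTN, smoothelin, which binds actin filaments, had 18.3 ± 1.39 CPM with YES1i and 39.9 ± 3.21 CPM with DMSO in SUM159, and 36.5 ± 2.16 CPM with YES1i and 83.2 ± 3.34 CPM with DMSO in MDA-MB-231. The log2 fold change of SMTN was -1.13 (SE 0.07) in SUM159 and -1.19 (SE 0.07) in MDA-MB-231. MYH11, the smooth muscle myosin heavy chain, fell to 1.72 ± 0.611 CPM with YES1i in SUM159, against 2.90 ± 0.291 CPM with DMSO (adjusted p = 0.0116 by edgeR).

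KRT18, a keratin of simple epithelia, fell by 0.56 (SE 0.05) on the log2 scale in MDA-MB-231 and by 0.57 (SE 0.05) in SUM159. Other epithelial markers did not all follow it. KRT8 fell by 0.54 in MDA-MB-231 and by 0.18 in SUM159. EPCAM was not called in MDA-MB-231 (0.03). In SUM159 EPCAM was called higher (adjusted p = 0.0237 by edgeR), at only 0.12 CPM with YES1i and 0.016 CPM with DMSO. CDH1 was not called in MDA-MB-231 (-0.51) and had 0 counts in SUM159. VIM, vimentin, fell by 0.14 (SE 0.04) in MDA-MB-231 and rose by 0.32 (SE 0.04) in SUM159, with a difference between lines of -0.46 (SE 0.06, adjusted p = 8.5e-07 by edgeR). Other mesenchymal markers did not share this pattern. ZEB1 rose by 0.31 in MDA-MB-231 (SE 0.08, adjusted p = 0.00343 by edgeR) and by 0.20 in SUM159 (SE 0.08, adjusted p = 0.0496). Its difference between lines was not called (adjusted p = 0.536), and CDH2 was not called in either line.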
